A study of Mus musculus with 4 samples.

Results

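Granulocytes were the 807 spleen cells that the authors annotated as Gran, of 24143 annotated cells in 4 droplet single-cell RNA libraries. Young wild type (WT) gave 37 of them, aged WT 16, the aged miR-146a knockout 293 and the aged double knockout 461. All mice were C57BL/6. The design gives WT as miR155 fl/fl, mice with a floxed miR-155 gene, and the young group is labelled WT alone. The miR-146a knockout lacked that microRNA in the whole body. The double knockout lacked miR-146a in the whole body and miR-155 in T cells, so that by design its granulocytes kept the miR-155 gene; the sources used here name no Cre driver. Aged mice were 15 months old, and each aged library came from 1 pool of 3 to 6 mice. For the young mice these sources state neither age nor number. Before library preparation the suspension was sorted for live, CD45+ events of low FSC and SSC, that is, for lymphocytes. Granulocytes scatter more light than lymphocytes, so this gate can set how many of them, and which ones, were captured. Each group was a single library without replicates. Differences between groups therefore have no test, and every interval given here is at 95% and covers counting error only.

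Neutrophils are the most common granulocytes. They arise in the bone marrow from promyelocytes, which load azurophil granules with enzymes such as myeloperoxidase and elastase. Dividing myelocytes and then metamyelocytes fill specific granules with lactoferrin, cathelicidin and neutrophilic granule protein, band cells add gelatinase granules, and mature cells gain chemokine and colony-stimulating factor receptors while they shed most of their RNA. Transcription factors of the C/EBP family, C/EBP epsilon above all, drive the specific granule genes. miR-146a dampens NF-kB signalling by targeting the adaptors IRAK1 and TRAF6, and mice that lack it are known to develop an excess of myeloid cells with age. Basophils are a separate granulocyte lineage that depends on GATA2.

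The microRNAs deleted in these mice are shown first because they define the groups. Capitals mark the seed, bases 2 to 8, in the mature sequences from RefSeq (GRCm38.p6). The miR-146a sequence lies at chr11:43374435-43374456 on the minus strand and the miR-155 sequence at chr16:84714143-84714165 on the plus strand.
mmu-miR-146a-5p: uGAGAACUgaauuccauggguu
mmu-miR-155-5p: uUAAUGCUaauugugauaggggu
Neither mature microRNA is read by this assay. Mir155hg, the host transcript of miR-155, had 0 UMIs (unique molecular identifiers, 1 per captured RNA molecule) in granulocytes of young WT, aged WT and the double knockout and 1 UMI in the miR-146a knockout. Those counts of 0 allow levels of up to 72.2, 78.5 and 1.49 CPM (UMIs per 1000000 UMIs of the cells summed), so the transcript does not check the labels in these cells.

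The depth behind the granulocyte values differed widely between libraries. Granulocytes of young WT held 41573 UMIs, those of aged WT 38228, those of the miR-146a knockout 1269236 and those of the double knockout 2009847. The medians per cell were 743, 1351.5, 4213 and 4286 UMIs in the same order. Of the 807 barcodes, 19 were also annotated in another library. Free RNA was present. S100a8 was read in B cells at 5.25, 9.31, 363 and 480 CPM in young WT, aged WT, the miR-146a knockout and the double knockout. A UMI of it was found in 1.1%, 1.86%, 60.2% and 62.3% of B cells at median depths of 1871, 1843.5, 2496 and 1943 UMIs, against all of the knockout granulocytes. Granulocytes themselves held 37500, 163000, 213000 and 209000 CPM of it. Ly6c+ monocytes held 8.37, 14.7, 1550 and 2480 CPM. The summed monocyte markers stood between 649 and 1460 CPM in granulocytes of the 4 libraries, those of B cells between 1350 and 2090, those of T cells between 131 and 601 and those of eosinophils between 89 and 144. In the miR-146a and double knockouts, Ly6c2 alone gave 1800 of 1833 and 2846 of 2932 monocyte marker UMIs, in 95.9% and 95.2% of granulocytes. Ear2 gave 110 of 113 and 182 of 192 eosinophil marker UMIs there. These sums thus rest on 1 gene each in the knockouts.

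The 15 genes with the most UMIs over all granulocytes, immunoglobulin, haemoglobin, mitochondrial and ribosomal protein genes left out, were those of neutrophils and of cells at large. They were, in order, S100a8, S100a9, Ngp, Camp, Lyz2, Tmsb4x, Lcn2, Actb, Ltf, Wfdc21, Malat1, Chil3, Ifitm6, Retnlg and Anxa1. The knockout cells set this order, since they held most of the UMIs.

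The annotation held more than neutrophils in the WT libraries. Of the 37 young WT cells, 13 carried at least 2 UMIs of the 8 basophil and mast cell markers, and so did 6 of the 16 aged WT cells. None of the 293 and 461 knockout cells did, which allows shares of up to 1.02% and 0.651%. This division was chosen after the values were seen, and these cells are called basophil-marker cells here. In young WT they held Gata2, a transcription factor of basophils, at 1510 CPM, Fcer1a, a chain of the IgE receptor, at 1240, Ms4a2, its beta chain, at 1240, and Mcpt8, a basophil protease, at 1920. In aged WT the same genes stood at 1520, 2070, 1520 and 3170 CPM. Across both groups the 19 cells held 0 UMIs of S100a8, S100a9, Camp and Retnlg and 1 UMI of Ngp, so they lacked the granulocyte markers that the knockout cells carried. The remaining WT cells, 24 in young and 10 in aged mice, each held S100a8 UMIs, since S100a8 was read in 24 young and 10 aged WT cells and in no basophil-marker cell.

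Cells with basophil markers were also present in the knockout libraries, under another name. Counting all annotated cells with at least 3 UMIs of the 8 markers, young WT had 15 (0.22%, exact Clopper-Pearson interval 0.123 to 0.362), aged WT 9 (0.153%, 0.0698 to 0.29), the miR-146a knockout 17 (0.352%, 0.205 to 0.563) and the double knockout 27 (0.409%, 0.27 to 0.595). Of these, 13 of 15 were named Gran in young WT and 5 of 9 in aged WT, whereas the miR-146a knockout had 16 of 17 and the double knockout 27 of 27 named DC/Mac. None of the 17 and 27 was named Gran, and in WT 2 young and 3 aged cells were named DC/Mac. The knockout DC/Mac cells differed in level from the WT Gran cells. Prss34, a basophil protease, stood at 20000 and 10500 CPM in the 18 and 30 DC/Mac cells with at least 2 marker UMIs in the miR-146a and double knockout, against 1 UMI over the 19 WT cells.

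Promoters of neutrophil granule and basophil genes are shown because these groups of genes marked separate cells under the same label. The 250 bases before the RefSeq start (GRCm38.p6), which can differ from the GENCODE start used for gene positions below, were searched on both strands for the C/EBP motif TTGCNNAA and the GATA motif AGATAA. The C/EBP motif was found in 4 of the 7 specific granule promoters (Ngp, Ltf, Lcn2 and Fcnb) and in 2 of the 8 basophil promoters, beside 9.56% of 32851 promoters. The GATA motif was found in 5 of the 8 basophil promoters and in 2 of the 7 specific granule promoters, beside 9.99% of all. Capitals mark matches to the C/EBP motif in Ngp and Ltf and to the GATA motif in Cpa3 and Ms4a2. The Ltf line also holds the GATA motif, which is left in lower case. Each line runs 5′ to 3′ toward the gene. A match is a description of the sequence and not a measured site.
Ngp, chr9:110419558-110419807, plus strand: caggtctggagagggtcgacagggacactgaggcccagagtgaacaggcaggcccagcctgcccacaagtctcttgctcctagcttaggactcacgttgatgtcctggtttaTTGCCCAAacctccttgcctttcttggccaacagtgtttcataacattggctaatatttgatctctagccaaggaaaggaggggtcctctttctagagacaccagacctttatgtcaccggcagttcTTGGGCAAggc
Ltf, chr9:111019042-111019291, plus strand: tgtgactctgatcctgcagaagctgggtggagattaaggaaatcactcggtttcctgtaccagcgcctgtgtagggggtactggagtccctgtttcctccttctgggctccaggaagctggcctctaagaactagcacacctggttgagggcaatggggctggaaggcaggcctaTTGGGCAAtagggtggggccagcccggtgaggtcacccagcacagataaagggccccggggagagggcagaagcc
Cpa3, chr3:20242182-20242431, minus strand: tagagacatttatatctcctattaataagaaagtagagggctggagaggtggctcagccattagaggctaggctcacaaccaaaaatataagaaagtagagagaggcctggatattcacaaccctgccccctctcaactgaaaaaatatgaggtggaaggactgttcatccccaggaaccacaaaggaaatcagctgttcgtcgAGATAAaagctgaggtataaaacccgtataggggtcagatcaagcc
Ms4a2, chr19:11623720-11623969, minus strand: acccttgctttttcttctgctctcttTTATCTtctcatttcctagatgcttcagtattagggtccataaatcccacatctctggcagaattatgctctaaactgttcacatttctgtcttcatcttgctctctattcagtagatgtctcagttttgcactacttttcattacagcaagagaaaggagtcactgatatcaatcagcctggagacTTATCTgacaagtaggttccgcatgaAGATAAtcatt

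Of annotated cells, granulocytes made up 0.542% (0.382 to 0.747) for young WT and 0.271% (0.155 to 0.44) for aged WT. The miR-146a knockout had 6.06% (5.41 to 6.77) and the double knockout 6.99% (6.39 to 7.63). Both knockout shares lay above both WT shares, and their intervals did not meet those of WT. The basophil-marker cells touch this comparison, because they sit in the WT shares and not in the knockout ones. Without them the shares were 0.352% in young WT and 0.17% in aged WT, and the miR-146a knockout held a 35.8-fold higher share than aged WT (Katz interval 19.1 to 67.1), against 22.3-fold (13.5 to 36.9) with them. The double knockout over aged WT was 41.2-fold (22.1 to 77) without them and 25.8-fold (15.7 to 42.4) with them. The double knockout over the miR-146a knockout was 1.15-fold (1.0 to 1.33). Over all barcodes called as cells this ratio was 1.23 (1.07 to 1.42). Counting every barcode with at least 5% of UMIs from the 5 markers, it was 1.22 (1.06 to 1.39). Aged over young WT was 0.5-fold (0.279 to 0.898), and 0.482-fold (0.231 to 1.01) without basophil-marker cells, where the interval includes 1. A share does not tell a gain of granulocytes from a loss of other cells or from a difference in the sort.

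**Figure D1:**
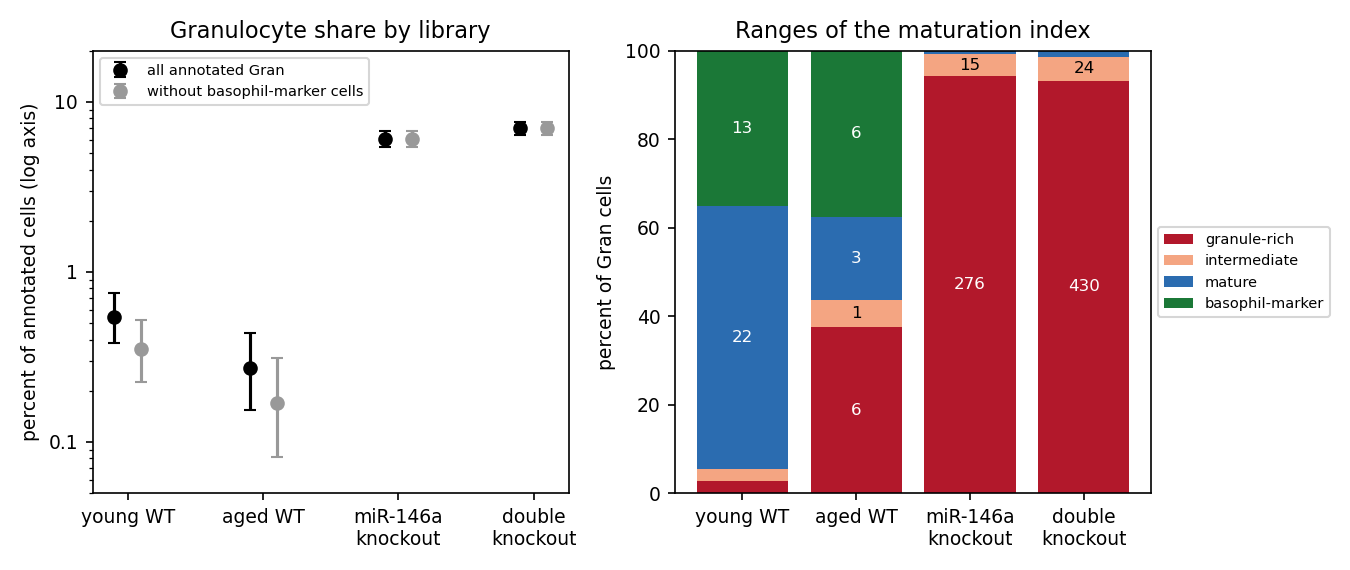
Left, granulocyte share of annotated cells in each library on a log axis, with exact 95% intervals, for all Gran cells and without basophil-marker cells. Right, the percent of Gran cells in each range of the maturation index and of basophil-marker cells, with cell numbers in the larger segments; granule-rich cells fill 94.2% and 93.3% of the knockout bars, and mature and basophil-marker cells fill most of the WT bars.

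The libraries differed in the maturation stage of their granulocytes. Each cell was given an index, the UMIs of 18 mature neutrophil genes (among them the chemokine receptor Cxcr2 and the colony-stimulating factor receptor Csf3r) over the UMIs of those genes plus the 7 specific granule genes (Camp, Ngp, Ltf, Lcn2, Fcnb, Cd177 and Chil3). Cells up to 0.2 are called granule-rich, those above 0.8 mature, and those between intermediate; these are ranges of a score, not types. In young WT, 22 of the 24 cells without basophil markers were mature, 1 was intermediate and 1 granule-rich. In aged WT, 3 of 10 were mature, 1 intermediate and 6 granule-rich. In the miR-146a knockout, 276 of 293 (94.2%, 90.9 to 96.6) were granule-rich, 15 intermediate and 2 mature. In the double knockout, 430 of 461 (93.3%, 90.6 to 95.4) were granule-rich, 24 intermediate and 7 mature. Young WT granulocytes were thus almost all at the mature end and knockout ones almost all at the granule-rich end, with the few aged WT cells on both sides.

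The index separated the cells with few near its limits. Between 0.15 and 0.25 there were 0, 0, 6 and 10 cells in young WT, aged WT, the miR-146a knockout and the double knockout, and between 0.75 and 0.85 there were 0, 1, 1 and 1. Over all Gran cells, the basophil-marker cells fell in the mature range, since Ccl6 and Hdc of the mature list are also read in them; with them, 35 of 37 young WT and 9 of 16 aged WT cells were mature. RNA content went with the range. The median was 664.5 UMIs in the mature young WT cells and 561 in the mature aged WT cells, against 4577.5, 4400 and 4410 in the granule-rich cells of aged WT, the miR-146a knockout and the double knockout. Annotated granulocytes held from 504 UMIs in young WT to 8950 in the miR-146a knockout. Mature cells of lower depth would not be counted, and the part this plays in the shares was not tested.

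**Figure D2:**
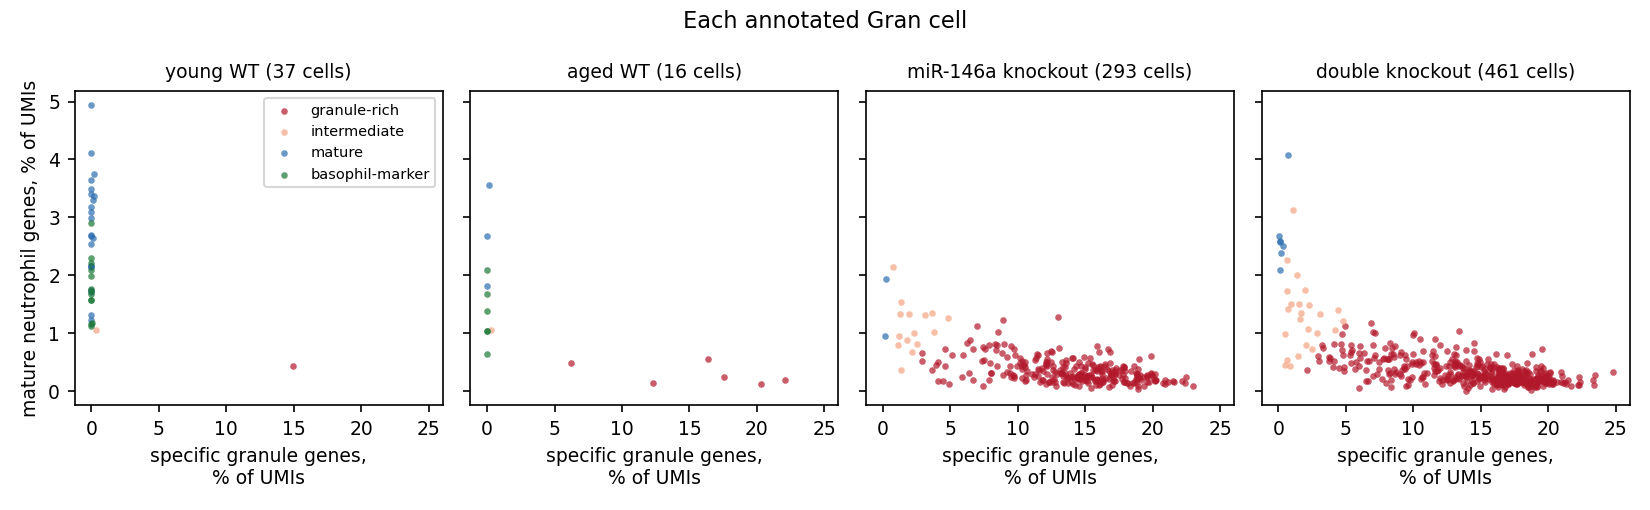
Each point is 1 annotated Gran cell, with the percent of its UMIs from the 7 specific granule genes on the horizontal axis and from the 18 mature neutrophil genes on the vertical axis, in 4 panels by library. Young WT cells lie along the left edge but for 1 granule-rich cell, and the 276 and 430 granule-rich knockout cells spread to the right with a thin tail of intermediate and mature cells.

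Over all Gran cells, the 5 granulocyte markers were lower in young WT than in the other libraries. These sums include the basophil-marker cells, which held almost none of the markers. Such cells made up 21843 of the 41573 UMIs in young WT and 7259 of the 38228 in aged WT, which lowers the WT values. S100a8 and S100a9 encode calprotectin, an antimicrobial and pro-inflammatory protein pair; they lie on chromosome 3, S100a8 from 90668978 to 90670035 and S100a9 from 90692632 to 90695721 (GRCm38, GENCODE M21). S100a8 had a UMI in 24 of 37 young WT cells, 10 of 16 aged WT cells and all 293 and 461 knockout cells. S100a9 stood at 25400, 86300, 121000 and 123000 CPM in young WT, aged WT, the miR-146a knockout and the double knockout. Camp, the cathelicidin precursor (chromosome 9, 109847379 to 109849617), stood at 4670, 44000, 57900 and 57500 CPM. All 194 Camp UMIs of young WT came from 1 cell, whereas Camp was read in 6 aged WT cells, 291 miR-146a knockout cells and 451 double knockout cells. Ngp, a cathelicidin-like granule protein (chromosome 9, 110419747 to 110423012), stood at 3540, 58900, 56200 and 59600 CPM, and in 2 young WT cells only. Retnlg, a resistin-like protein of band and mature neutrophils (chromosome 16, 48872621 to 48874496), was the most even of them, at 2160, 2900, 4330 and 5100 CPM. Summed, the 5 markers made up 7.33%, 35.5%, 45.3% and 45.4% of granulocyte UMIs, so that a gain in them lowers the CPM of all other genes.

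In the aged WT cells, Camp, whose UMIs are part of the index, was read in the 6 granule-rich cells, with 535, 176, 254, 467, 198 and 53 UMIs in cells of 7028, 5352, 3803, 6829, 3632 and 1875 UMIs. The other 4 cells without basophil markers held 0 Camp UMIs.

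Comparing whole libraries mixes these stages. In aged over young WT, 6 of the 6 measured specific granule genes were at least 2-fold higher, with a median log2 ratio of 3.61, and 8 of 9 mature neutrophil genes were at least 2-fold lower, with a median of -2.02. Over all 511 genes with at least 20 UMIs, 7.83% were that much higher and 34.2% that much lower, with a median of -0.62. Without basophil-marker cells the specific granule median was 2.84, and the aged WT value rests on 6 cells. In the miR-146a knockout over aged WT, 0 of 7 specific granule genes passed 2-fold in either direction (median 0.17, and 1.11 with TMM scaling), where 1.55% of 3675 genes were higher and 39.1% lower (median -0.7). The total depths differ widely, so the 1 UMI added weighs more in the small aged WT library, and list medians of this comparison are read only for abundant genes. The cause of the low overall median was not tested. Of the inflammatory mediators, 3 of 4 measured were at least 2-fold lower in the knockout, led by the chemokine Ccl3. All 30 Ccl3 UMIs of aged WT came from basophil-marker cells. The other measured member, Tnf, had 0 UMIs in aged WT and 21 in the knockout, so its log2 ratio of -0.59 takes its sign from the 1 UMI added.

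At a matched stage, granule-rich cells of aged WT and of the knockouts were alike in most abundant genes. Between 6 aged WT and 276 miR-146a knockout cells, 111 genes had a mean of at least 701 CPM, of which 1.8% were at least 2-fold higher and 0.901% lower in the knockout. S100a8 stood at 208000, 214000 and 209000 CPM in granule-rich cells of aged WT, the miR-146a knockout and the double knockout. Camp stood at 59000, 59500 and 59100 CPM. Ltf, the gene of lactoferrin, stood at 10600, 11900 and 11600 CPM, and Lyz2, the gene of lysozyme, at 23400, 23100 and 23200. Camp, Ltf and Ngp are among the genes of the index, which fixes their ratio to the mature genes but not their level. Ngp was lower in the miR-146a knockout, at 57700 against 79000 CPM, a fold of 1.37 (1.31 to 1.43). Up to an index of 0.02, a range chosen after seeing the data, with 4 aged WT cells, the fold was 1.24 (1.18 to 1.29). In that range Ngp was also 1.21-fold (1.16 to 1.27) lower in the double knockout. In the double knockout over the same 6 aged WT cells, 1.77% of 113 genes were higher and 0 lower, and both comparisons share those cells. The 2 genes past 2-fold upward, in either knockout, were S100a6 and Actb, and the gene past it downward in the miR-146a knockout was Hmgb2, all named after their values were seen.

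S100a6, a calcium-binding protein, had the highest ratio of these. It held 736 CPM in aged WT, from 21 UMIs in 3 of the 6 cells, against 3510 CPM in 256 of 276 miR-146a knockout cells and 3710 CPM in 401 of 430 double knockout cells. The ratios were 4.77 (3.12 to 7.71) and 5.04 (3.3 to 8.15). S100a6 also differed along the index, from 2040 CPM in the most granule-rich of 4 equal bins to 6650 in the last in the miR-146a knockout and from 1690 to 8160 in the double knockout. In cells with an index up to 0.02, a range chosen after seeing the data, it stood at 478 CPM in 4 aged WT cells, from 11 UMIs, against 2550 and 2570 in 132 and 234 knockout cells, ratios of 5.33 (2.97 to 10.7) and 5.38 (3 to 10.8). Its level in B cells was 33.9, 104 and 101 CPM in these libraries, far below the granulocyte levels. Actb, beta-actin, stood at 5050, 13000 and 10600 CPM, 2.58-fold (2.19 to 3.06) and 2.1-fold (1.79 to 2.5) higher, with B cells at 7250, 6820 and 6840 CPM. Hmgb2, a chromatin protein high in dividing cells, stood at 3260, 1630 and 1820 CPM, 2.01-fold (1.61 to 2.47) and 1.79-fold (1.44 to 2.2) lower. It too differed along the index, with 2040 and 2470 CPM in the most granule-rich bins, and up to an index of 0.02 it stood 2.14-fold (1.7 to 2.66) and 1.76-fold (1.4 to 2.18) lower, at 3780, 1770 and 2150 CPM. Of the 201 cell cycle UMIs in aged WT cells without basophil markers, 160 came from 2 of the 10 cells. With 6 cells from 1 pool, the intervals leave out variation between cells and mice.

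Mature cells could be compared between 22 young WT cells and 9 knockout cells, 2 from the miR-146a and 7 from the double knockout, summed because both are few. Of 57 genes with a mean of at least 1790 CPM, 10.5% were at least 2-fold higher and 10.5% lower in the knockouts. The 6 higher genes were S100a8, S100a9, S100a6, Retnlg, Wfdc21 and Lyz2. S100a8 stood at 60100 CPM in young WT, 230000 in the 2 miR-146a knockout cells and 149000 in the 7 double knockout cells, a ratio of 2.81 (2.6 to 3.03) for both knockouts together. Retnlg stood at 5250, 66700 and 36900 CPM, a ratio of 8.4 (6.67 to 10.7), with UMIs in 17 of 22 young WT and 8 of 9 knockout cells. The B cell levels of S100a8 in the knockouts, near 426 CPM, are small beside these. The lower genes included H2-D1, an MHC class I chain, at 5500 against 2050 CPM, Tyrobp, a signalling adaptor, at 13800 against 6520 CPM, and the ribosomal protein genes Rps14, Rps27 and Rps27a. These groups differ in age as well as genotype, which cannot be told apart here. They also differ within the mature range. The index had a median of 1.0 and a lower quartile of 0.992 over the 24 young WT cells without basophil markers. In the 9 mature knockout cells it ran from 0.833 to 0.984. Median depths of the mature cells were 664.5 and 1257 UMIs. The part of index and depth in these ratios was not tested.

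Several other genes of mature neutrophils were near each other in these same cells. Il1b, the gene of interleukin-1 beta, stood at 1830 CPM in mature young WT cells, from 30 UMIs, and at 1160 CPM in mature knockout cells, a ratio of 0.634 (0.304 to 1.25). Its 13 UMIs in the knockouts all came from the double knockout, 8 of them from 1 cell. In granule-rich cells Il1b had 1 UMI in 1231768 for the miR-146a knockout and 1 in 1954461 for the double knockout. Fth1, ferritin heavy chain, stood at 6590 and 6340 CPM in mature young WT and knockout cells, S100a11 at 10300 and 10400, and Wfdc17, a secreted protease inhibitor-like protein, at 2260 and 2320. With so few cells these values do not show that the levels are alike.

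Within the knockouts, the 9 mature cells were set beside the 706 granule-rich ones, for genes outside the index with at least 50 UMIs in the range where they were higher. By that minimum, the highest ratio belonged to Retnlg, at 44100 against 3630 CPM, a ratio of 12.2 (11.1 to 13.3), and the next to Fth1, 7.22 (5.62 to 9.13). Ftl1, S100a6, Malat1, Tyrobp, S100a11, Fau, Tmsb4x and Cd52 followed, with ratios from 4.2 down to 1.54. Genes of fewer UMIs were left out by the minimum, among them Il1b, with 13 UMIs in mature and 2 in granule-rich cells, and Wfdc17, with 26 and 20, which the far larger total of the granule-rich cells puts at higher ratios than Retnlg. Among the 10 lowest ratios were Lyz2, at 5450 against 23200 CPM, 4.25-fold lower, Anxa1, the gene of annexin A1, at 893 against 4450 CPM, 4.98-fold lower, and Ifitm6, an interferon-induced transmembrane gene, at 268 against 5180 CPM from 3 UMIs. Serpinb1a, an inhibitor of neutrophil serine proteases, had 0 UMIs in mature cells and stood at least 3.71-fold lower by the floor of 3 counts over the group. Cebpe and Cybb had 1 UMI each in the mature cells, and Scp2, Cpne3, Ppia and Smim14 had 0 or 1.

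**Figure D3:**
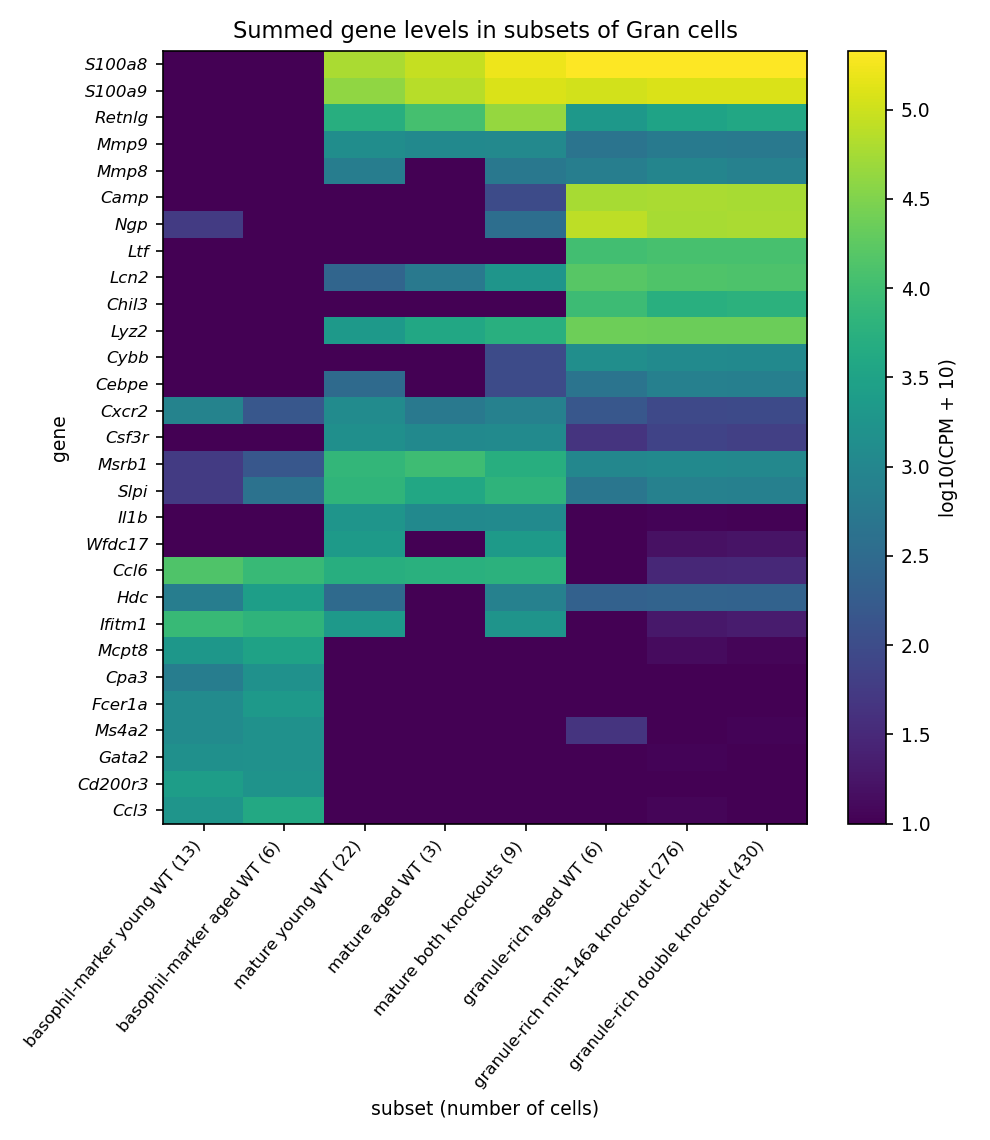
Summed levels of 29 genes in 8 subsets of Gran cells, with the number of cells in brackets, coloured by log10(CPM + 10). Basophil-marker cells carry the genes from Mcpt8 to Cd200r3, and granule-rich cells carry Camp, Ngp, Ltf and Chil3. Il1b and Wfdc17 are read in mature cells of young WT and of both knockouts summed, where all their UMIs came from the double knockout. Il1b is also read in mature aged WT cells, from 2 UMIs.

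Within the knockout libraries, the index ordered cells in the same way in both. Each library was divided into 4 equal bins of the index, from the most granule-rich to the most mature. The 6 azurophil granule genes, among them Elane (elastase) and Prtn3 (proteinase 3), are outside the index and were summed. Their level was 217, 32.3, 17.1 and 9.62 CPM from the first to the last bin in the miR-146a knockout and 271, 87.8, 16.7 and 10 CPM in the double knockout. The 19 cell cycle genes stood at 5340, 3140, 3230 and 2380 CPM in the miR-146a knockout and at 7570, 4310, 3080 and 2000 CPM in the double knockout. Both sets were thus highest in the most granule-rich bin. Mpo, the myeloperoxidase gene, was nearly absent, with 0 and 2 UMIs over all granulocytes of the miR-146a and double knockouts.

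The regulator Cebpe and later granule genes, all outside the index, differed along the same order. Cebpe, the gene of C/EBP epsilon (chromosome 14, 54710360 to 54712174), stood at 949, 782, 597 and 389 CPM by bin in the miR-146a knockout and at 900, 785, 602 and 264 in the double knockout. The related factors Cebpb and Cebpd had no such order, with 98.1, 61.7, 75.1 and 130 CPM and 280, 344, 273 and 341 CPM in the miR-146a knockout and 95, 54.5, 100 and 93.5 CPM and 274, 313, 247 and 401 CPM in the double knockout. Ms4a3, a membrane protein of granulocyte precursors, stood at 150, 32.3, 6.83 and 0 CPM and at 193, 70.3, 12.6 and 3.34. In the other direction, Mmp8, a collagenase, stood at 56.1, 720, 1300 and 2760 CPM and at 90.5, 343, 1230 and 2690. Mmp9, gelatinase B, stood at 138, 538, 833 and 1470 CPM and at 172, 394, 830 and 1410. Retnlg stood at 252, 1270, 3210 and 19300 CPM and at 371, 755, 4220 and 25200.

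**Figure D4:**
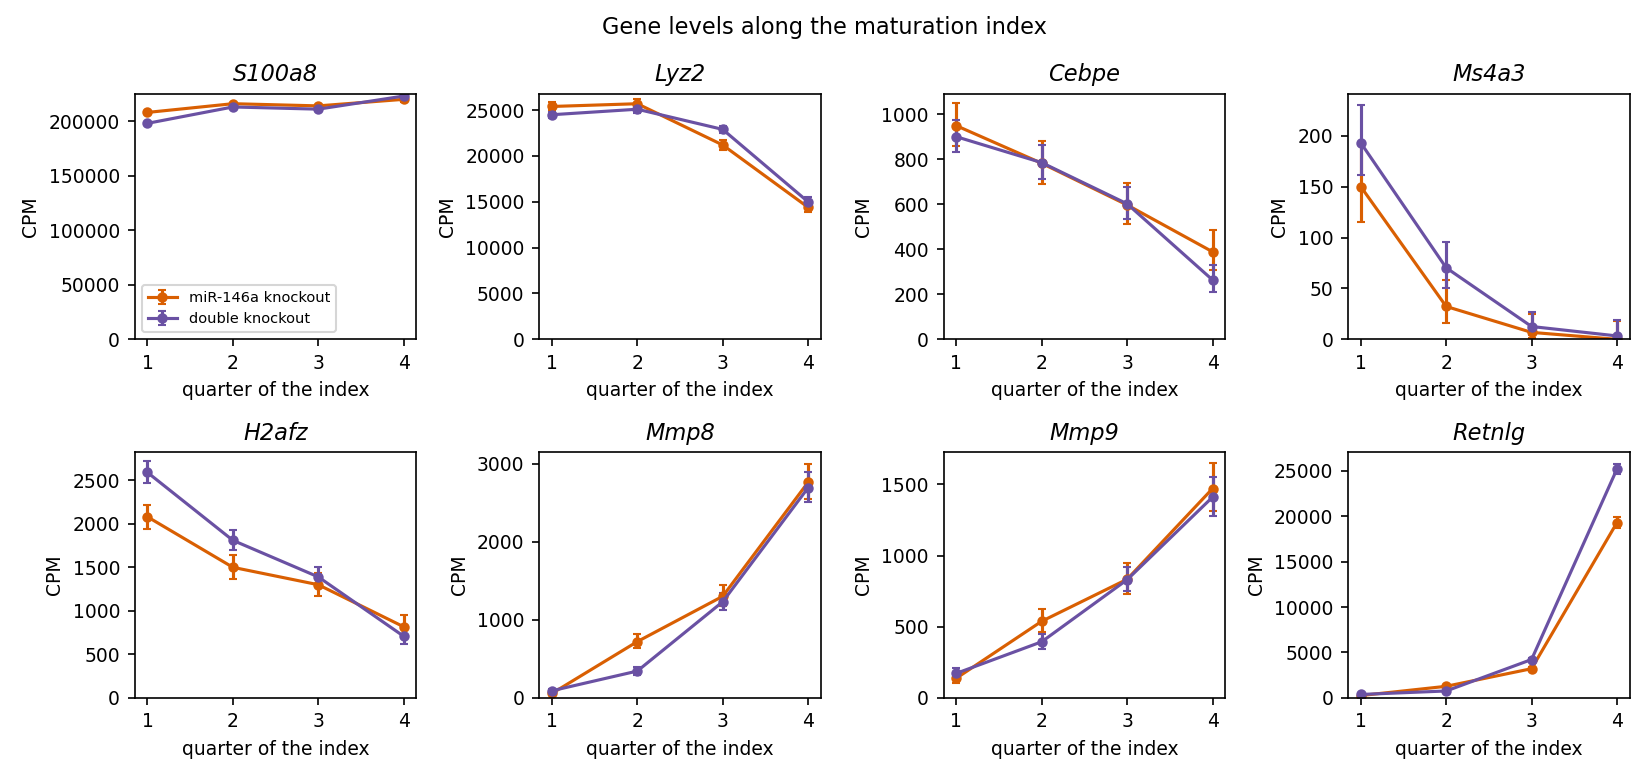
Levels in CPM of 8 genes in the 4 bins of the maturation index, with Poisson 95% intervals, in the miR-146a knockout (orange) and the double knockout (purple). Cebpe, Ms4a3 and H2afz are lowest in the last bin, Mmp8, Mmp9 and Retnlg highest there, and S100a8 stays between 198000 and 223000 CPM.

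Other groups differed little between bins, or differed together with depth. S100a8 stood between 208000 and 220000 CPM over the bins of the miR-146a knockout, and S100a9 between 114000 and 126000. The 6 NADPH oxidase genes, which make the respiratory burst enzyme, stood between 6240 and 7050 CPM there, and the 15 glycolysis genes between 5420 and 5970. Type I interferon response genes stood at 245 and 726 CPM in the first and last bins of the miR-146a knockout and at 164 and 738 in the double knockout. Median UMIs per cell went from 5743 to 2856 and from 5724 to 2470 between the same bins. B cell genes went from 1150 to 2210 CPM and from 1360 to 2470. Among them, Igkc was read in 95.2% and 94.6% of the miR-146a and double knockout granulocytes and Cd79a in 14.3% and 15.6%. Free RNA and doublets were not told apart in these genes, and the part of either in the interferon values was not tested.

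Few granulocyte genes differed between the knockouts with and without loss of miR-155 in T cells. Between the double and the miR-146a knockout, 5897 genes had at least 20 UMIs, of which 2.59% were at least 2-fold higher (153 genes) and 1.68% lower (99 genes). Of the 2166 genes with at least 100 UMIs, 6 were higher and 1 lower. None of the 7 specific granule, 13 other granule, 17 mature neutrophil, 6 NADPH oxidase or 14 glycolysis genes measured passed 2-fold, and their medians lay between -0.04 and 0.00 on the log2 scale, where all genes had a median of -0.01. Ltf stood at 11600 and 11300 CPM, a ratio of 0.98 (0.96 to 1.0), and Cybb, the catalytic oxidase subunit, at 1130 and 1080 CPM, a ratio of 0.955 (0.893 to 1.02). Retnlg was 1.18-fold higher (1.14 to 1.22) and Mmp8 1.18-fold lower (1.09 to 1.27).

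Among annotated granulocytes, cell cycle genes stood higher in the double knockout. Marker-rich barcodes without a cell type name, given further below, had the reverse order, at 11400 CPM in the miR-146a and 10200 in the double knockout. All 19 measured members had a ratio above 1, 6 of the 19 were at least 2-fold higher and 0 lower, and the median log2 ratio was 0.80. Cdk1, the kinase of mitotic entry, stood at 5.52 and 23.4 CPM in the miR-146a and double knockouts, a ratio of 4.24 (1.9 to 11.1). Mki67, the proliferation antigen, stood at 7.88 and 30.4 CPM, a ratio of 3.85 (1.96 to 8.43), and Ube2c, a ubiquitin-conjugating enzyme of mitosis, at 15 and 51.7 CPM, a ratio of 3.46 (2.11 to 5.97). H2afz and Hmgb2, the most abundant members, were 1.17-fold (1.11 to 1.24) and 1.12-fold (1.06 to 1.18) higher. Outside the list, the condensin gene Smc2 stood at 16.5 and 42.3 CPM, a ratio of 2.56 (1.57 to 4.34).

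**Figure D5:**
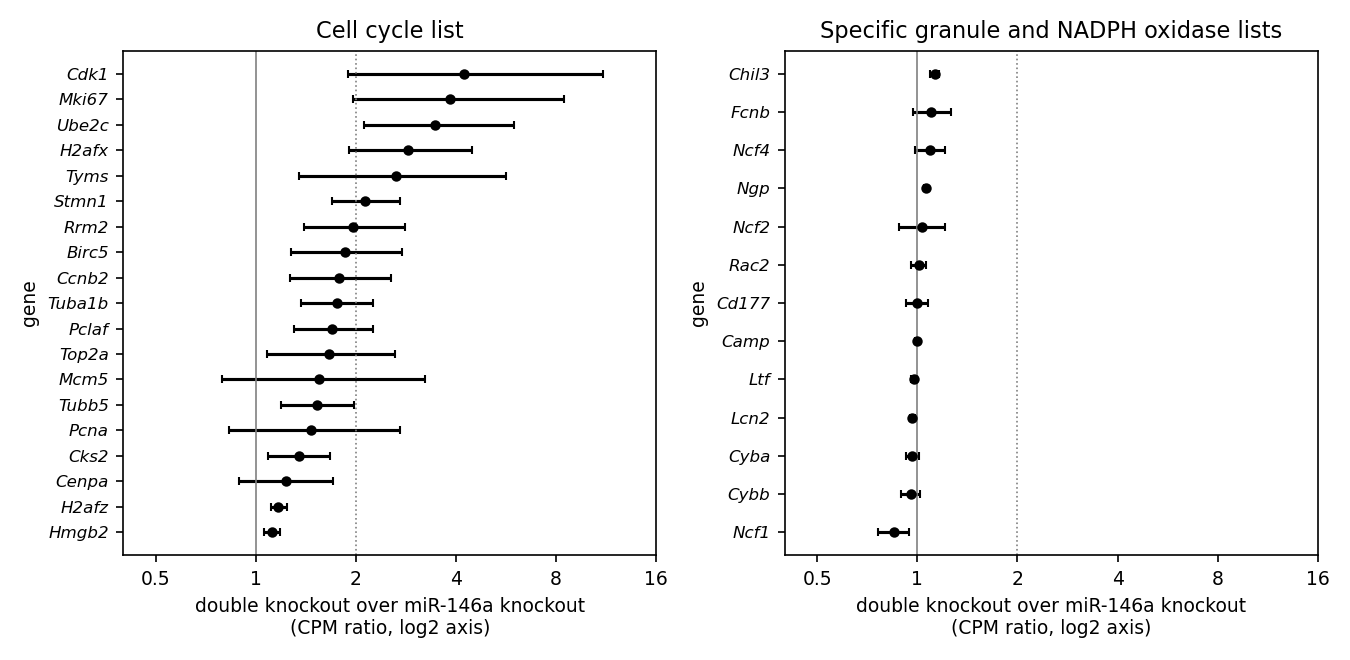
Ratio of CPM in double knockout over miR-146a knockout granulocytes with 95% counting intervals on a log2 axis, for the 19 cell cycle genes (left) and for specific granule and NADPH oxidase genes (right); the solid line marks 1 and the dotted line 2. The cell cycle genes lie to the right of 1, from Hmgb2 to Cdk1, and the others lie close to 1.

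The cell cycle UMIs were held by a minority of cells. Cells with at least 1% of UMIs from the list were 15 of 293 (5.12%, 2.89 to 8.3) in the miR-146a knockout and 41 of 461 (8.89%, 6.46 to 11.9) in the double knockout, a ratio of 1.74 (0.979 to 3.08). Thinned to 2000 UMIs per cell, with 35 and 44 shallower cells left out, the shares were 5.43% and 9.11%, a ratio of 1.68 (0.928 to 3.04). By at least 5 UMIs of 13 genes confined to dividing cells, they were 7.51% and 12.8%, a ratio of 1.7 (1.07 to 2.72). The interval of the ratio thus includes 1 by the first rule and by thinning and not by the last. Without the cells of the first rule, the list's median log2 ratio was 0.04, by construction, since that rule removes the cells that hold these genes.

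The cells with at least 1% of cell cycle UMIs, called cycling here, sat at the early end of the granule-rich range in both libraries. Fcnb, ficolin B, stood at 1050 CPM in cycling and 237 in other cells of the miR-146a knockout and at 869 and 239 in the double knockout. Elane stood at 93.1 and 1.69 CPM and at 60.2 and 2.29. Retnlg stood at 81.4 and 4640 CPM and at 64 and 5870, and Mmp8 had 1 and 0 UMIs in the cycling cells. Camp, at 63200 and 57500 CPM and at 72500 and 55300, was carried by cycling and other cells alike. The cycling cells were deeper, with medians of 6267 and 6796 UMIs against 4141 and 4112.5.

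Smaller groups differed by less or rested on few cells. Of the 5 measured stefin A genes, which encode cysteine protease inhibitors, 2 were at least 2-fold higher in the double knockout (median 0.81). Gm5483, one of them, stood at 4.73 and 40.8 CPM, but its 82 UMIs in the double knockout came from 13 cells, with 15 in 1 of them. Asprv1, an aspartic protease, stood at 10.2 and 29.9 CPM, a ratio of 2.91 (1.58 to 5.79), with UMIs in 11 and 39 cells. Rnaset2a, an RNase T2 gene that has a near-identical neighbour among which reads may be split, stood at 107 and 53.7 CPM, 1.99-fold lower (1.54 to 2.59).

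Among genes of the pathway that miR-146a limits, few were abundant in granulocytes. Over all Gran cells, basophil-marker cells included, the 15 NF-kB feedback genes summed to 392 CPM (220 to 647) in aged WT and 497 (459 to 537) in the miR-146a knockout. The 8 miR-146a targets summed to 183 (73.6 to 377) and 173 CPM (150 to 197). The aged WT sums rest on 15 and 7 UMIs. The ratios that follow compare libraries that both lack miR-146a. The 12 measured NF-kB feedback genes had a median log2 ratio of -0.38 in the double over the miR-146a knockout, with 0 past 2-fold. Zfp36, which destabilises cytokine mRNA, stood at 92.2 and 47.3 CPM, 1.95-fold lower (1.47 to 2.58), and Nfkbia, the inhibitor of NF-kB, at 206 and 148 CPM, 1.39-fold lower (1.17 to 1.65). The 6 measured miR-146a targets had a median of -0.51, also with 0 past 2-fold. The member with the highest ratio was Irak2, at 7.09 and 13.4 CPM from 9 and 27 UMIs, a ratio of 1.89 (0.865 to 4.58). Irak1 stood at 17.3 and 9.45 CPM from 22 and 19 UMIs, and Traf6 at 3.15 and 2.49 CPM from 4 and 5 UMIs. Egr1, an immediate early transcription factor, stood at 16.5 and 3.48 CPM, 4.75-fold lower (1.95 to 13.2), from 21 and 7 UMIs in 19 and 7 cells. It was the 1 of 9 immediate early and heat shock genes measured past 2-fold, with a list median of 0.07. Haemoglobin Hbb-bs, which granulocytes do not make, stood at 61.5 and 11.9 CPM, 5.15-fold lower (3.22 to 8.51), and in B cells at 69.4 CPM in the miR-146a knockout (15.4% of cells with a UMI) and 203 CPM in the double knockout (2.01% of cells). The part of free RNA in these differences was not tested.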

How the data were processed

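The authors deposited raw counts of UMIs for 31053 genes in 4 libraries with 27577 barcodes, made with Cell Ranger 3.0.0 on mm10 per the submitters' processing notes, and a deposited table of 16 cell type names (unit: other); the labels do not say how they were given, and they mention 3' as well as 5' chemistry. No further filter on cells and no doublet caller was applied; annotated granulocytes held at most 8950 UMIs. Members and gene lists were chosen with earlier results of these data known.

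Counts were summed over Gran cells per library and given as CPM with exact Poisson intervals; ratios have conditional binomial intervals, and shares exact Clopper-Pearson or, as ratios, Katz intervals. With 1 library per group, 2-fold is a statement of size, for genes with at least 20 UMIs over both libraries and 1 UMI added. Counts of 0 were read against a floor of 3 counts. Genes outside the lists were named by a rule in the double over the miR-146a knockout: up to 10 per direction, with at least 50 UMIs in 20 cells, an interval beyond 1.5-fold and at least 20% of the highest level among types. List members with the highest or lowest ratio or a central role, and those singled out as chosen after their values were seen, were added. Comparisons within a range of the index, among genes whose mean was equivalent to 20 UMIs in the smaller sum, were also added after seeing the data. Sequences are from RefSeq. Python 3.11.15, numpy 2.4.6, scipy 1.17.1 and pandas 2.3.3 were used, with edgeR 4.0.16 in R 4.3.3 for TMM scaling only. The scripts were tested on simulated data.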

Additional observations from a re-analysis of the deposited data

Results flagged for a closer look

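Barcodes left without a cell type name, which the gene ratios above leave out, held further cells rich in the granulocyte markers. At least 5% of UMIs came from the 5 markers in 28 unannotated barcodes of the miR-146a knockout and 40 of the double knockout, against 1 in each WT library. Of these, 28 and 36 had more than 9000 UMIs, above the annotated range. Their azurophil granule genes stood at 1160 CPM (1050 to 1290) in the miR-146a knockout and 1680 CPM (1550 to 1810) in the double knockout, against 87.5 and 120 CPM in annotated granulocytes, and against 251 and 317 CPM in the annotated granulocytes with at least 7000 UMIs. Elane stood at 456 and 793 CPM in them. Cell cycle genes stood at 11400 (11000 to 11700) and 10200 (9870 to 10500) CPM, against 3780 and 4740 CPM in annotated granulocytes, where the order was the reverse. The single such barcode of young WT held azurophil genes at 8710 CPM (7000 to 10700). Doublets were not tested for, and their part in these barcodes was not tested.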

How the results depend on the processing

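No paired analysis was possible because each group is 1 library, and no replicate could be left out. With index limits of 0.1 and 0.9, granule-rich cells were 90.4% (miR-146a knockout) and 88.1% (double knockout). In the double over the miR-146a knockout, the 153 higher and 99 lower genes of 5897 became 6 and 1 of 2166 with at least 100 UMIs, 678 and 1364 of 11742 with no minimum beyond 1 UMI, and 18 and 39 of 615 without cells with 2 UMIs of B or T cell markers, so that these counts move with the number of genes measured. Without cycling cells 96 of 5481 were higher, and as a mean over cells 151 of 5897 were lower. Removing cells with B or T cell markers left 17 and 42 cells, since immunoglobulin RNA was read in most granulocytes. The cells left gave medians of 0.18 for the granulocyte markers and -0.05 for specific granule genes. The cell cycle median was 0.04 without cycling cells. TMM scaling, whose log2 shift was -0.94 in the miR-146a knockout over aged WT, gave medians of 1.33 for the markers and 1.11 for specific granule genes, and 2.46 for the markers in aged over young WT. Without basophil-marker cells these were 0.09 and -0.13, and 1.34 for the markers and 2.84 for specific granule genes with age. The granulopoiesis transcription factors, at -1.35 in the miR-146a knockout over aged WT, stood at 0.23 over the 3 members with a mean of at least 250 CPM. Leaving out basophil-marker or cycling cells and the mean filter were chosen after seeing the data. The cause of the other shifts was not tested. Few WT cells limit every WT value.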
